A study of Mus musculus with 11 samples.

Results

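Knockdown of Chd1 was compared with control hairpins in cultured WFU3 cells, which are mouse prostate epithelial stem cells kept as a line. The mRNA was selected with oligo(dT) beads and sequenced. The comparison uses 5 of the 11 libraries of the series, chosen by their hairpin labels: 2 libraries labelled shChd1 and 3 labelled shControl. The remaining 6 libraries carry a hairpin against Map3k7, with or without one against Chd1, and enter the estimate of spread; their own values are given in the closing section for a few genes. The series set out to find genes that differ between its 4 groups.

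Both shChd1 libraries carry a GFP-marked control hairpin and a puromycin-selected Chd1 hairpin (shRNA, a short RNA that lowers its target's mRNA), and both were made in control line 4. Replicate 1 carries construct 96526 and was taken at passage 52, and replicate 2 carries construct 96528 at passage 50. The 3 shControl libraries each carry a pair of control hairpins. Replicate 1 is a line with no number at passage 30, its hairpins marked puro and neo. Replicate 2 is line 4 at passage 52 and replicate 3 is line 5 at passage 52, both marked GFP and puro. Per the labels' protocols, clones 4 and 5 were picked with cloning cylinders before the second hairpin was added, so the shChd1 group samples a single clone with different constructs. The labels do not say that the libraries came from separate cultures, so p-values measure only the spread between these samples.

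CHD1 is a chromatin-remodelling ATPase whose chromodomains bind histone H3 methylated at lysine 4, a mark of active promoters, and which spaces nucleosomes over transcribed genes. CHD1 is among the genes recurrently deleted in human prostate cancer. The prostate epithelium consists mainly of basal cells, which sit on a laminin-rich basement membrane and express keratins 5 and 14, and luminal cells, which express keratins 8 and 18 and secrete under androgen control.

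The 5 libraries held 14846114 to 18859722 counts, and 3 counts corresponded to 0.156 to 0.19 CPM. Levels are given as CPM, counts scaled to a common library size of 1e6 with TMM factors (trimmed mean of M-values), which compare a gene between libraries and not genes with each other. Log2 fold changes (± SE) are shChd1 less shControl from an edgeR quasi-likelihood fit of all 11 libraries, and p is adjusted by Benjamini-Hochberg. Genes with an adjusted p below 0.05 were called. A value "within line 4" sets the 2 shChd1 libraries against the line 4 control alone, by adding the line to the model as a block. The spread in that model comes from the 2 shChd1 libraries and the 6 libraries with a Map3k7 hairpin. No difference between control libraries enters it. The shChd1 libraries correlated with each other at r = 0.987 over the log2 CPM of the 14346 genes tested. They correlated with the line 4 control at 0.984 and 0.979, and with the other controls at 0.934 to 0.948. The controls correlated with each other at 0.963 to 0.966.

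The cultures expressed epithelial keratins of both kinds. Krt8, a luminal keratin, ran from 12417 to 49128.9 counts per library, and Krt14, a basal keratin, from 8623 to 62586.6. Among 28 basal markers 1 was at 0 in all 5 libraries, and among 23 luminal markers 4, including Pbsn, which encodes the androgen-dependent secretory protein probasin. Krt5, the partner keratin of Krt14, had 31 and 1 counts in shChd1 and 784, 1 and 2 in shControl. The unnumbered control line stood apart in some markers of other cell types as well. Its library held 291 counts of the endothelial cadherin gene Cdh5, against 0 and 0 in shChd1 and 0 and 2 in the other controls, and 132 counts of the fibroblast proteoglycan gene Dcn, against 0 and 4 in shChd1 and 2 and 0 in the other controls. Not all markers of these lists did so. The endothelial receptor gene Flt1 had 778 and 646 counts in shChd1, and 674, 702 and 307 in the unnumbered, line 4 and line 5 controls. The fibroblast marker Prrx1 had 440 and 459 counts in shChd1, and 389, 716 and 209 in the controls in the same order. The part of that line's makeup in the results below was not tested.

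Chd1 mRNA was lower in both shChd1 libraries than in any control. Chd1 (chromosome 17, 15704967 to 15772610, GRCm38) measured 146 and 150 CPM in shChd1, against 212, 195 and 204 CPM in shControl. The shChd1 mean was 72.6% of the control mean and 75.8% of the line 4 control. The groups did not overlap, and the log2 difference was -0.46 ± 0.10 (adjusted p = 0.047). Within line 4 it was -0.40 ± 0.11 (adjusted p = 0.134). Of the fits that left out 1 library, the one without the line 4 control kept the call (adjusted p = 0.0153) and the 10 others ended it (adjusted p = 0.0562 to 0.426). Map3k7, which encodes the kinase TAK1 and has no hairpin in these libraries, measured 138 and 138 CPM in shChd1, against 124, 137 and 140 CPM in shControl, and the groups overlapped (log2 0.04 ± 0.09, adjusted p = 0.788).

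Among the other genes of the CHD family, Chd6, a related remodelling ATPase, rose. It measured 89.4 and 92.9 CPM in shChd1, against 54.2, 67.9 and 58.8 CPM in shControl (log2 0.60 ± 0.13, adjusted p = 0.0434; within line 4 0.42, adjusted p = 0.0808). The other 8 family members did not pass the test, beside 2.91% called over all genes. Of 29 partners of CHD1 and elongation factors edgeR called none (median log2 -0.04), beside the same 2.91%. Of these 9 were at an unadjusted p under 0.05, beside 3603 of 14346 over all genes. DESeq2 called 3 (1715 over all genes) and limma voom 1 (515). The closest was Tceal1, at 4.79 and 6.45 CPM in shChd1, against 2.12, 2.39 and 1.71 CPM in shControl (adjusted p = 0.0633), followed by Cdk9, the kinase of the elongation factor P-TEFb, at 83.2 and 77.6 CPM in shChd1, against 103, 92.6 and 102 CPM in shControl (adjusted p = 0.0801).

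Across the genome most called genes were lower in shChd1. Of 14346 genes tested 417 were called, or 2.91%, with 95 higher (0.662%) and 322 lower (2.24%). The change was at least 2-fold in 207 of them (1.44% of the genes tested), 41 higher (0.286%) and 166 lower (1.16%). With limma voom the split was 283 higher and 232 lower. Both shChd1 libraries lay outside the range of the 3 controls in 6663 genes, or 46.4%, with 3313 above and 3350 below it, and this group included all 417 called genes.

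The number of genes called depended on the libraries in the fit. The control nearest to the shChd1 mean was line 4 in 381 of the 417 called genes (91.4%) and in 8629 of all genes tested (60.1%). Leaving out the line 4 control gave 2650 calls, leaving out the unnumbered line gave 5, and leaving out the line 5 control gave 4. Leaving out shChd1 replicate 1 gave 4 calls. Leaving out shChd1 replicate 2 gave none by edgeR, the one tool run so, with 1575 genes at an unadjusted p under 0.05. Leaving out 1 of the 6 libraries with a Map3k7 hairpin, which are not compared here, gave 30 to 72 calls. A fit of the 5 compared libraries alone, and one of counts summed per line, called none by edgeR, with 2925 and 1422 genes in that order at an unadjusted p under 0.05. Against the line 4 control alone 142 genes were called, or 0.99%, with 50 higher (0.349%) and 92 lower (0.641%), and 94 genes were called in both comparisons, 19 higher and 75 lower. The median absolute log2 change of the 417 genes was 0.995 against all controls and 0.63 within line 4. The line a library came from and the Chd1 hairpins cannot be told apart in the first comparison, because no shChd1 library was made in the other lines. The second has 1 control library.

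**Figure D1:**
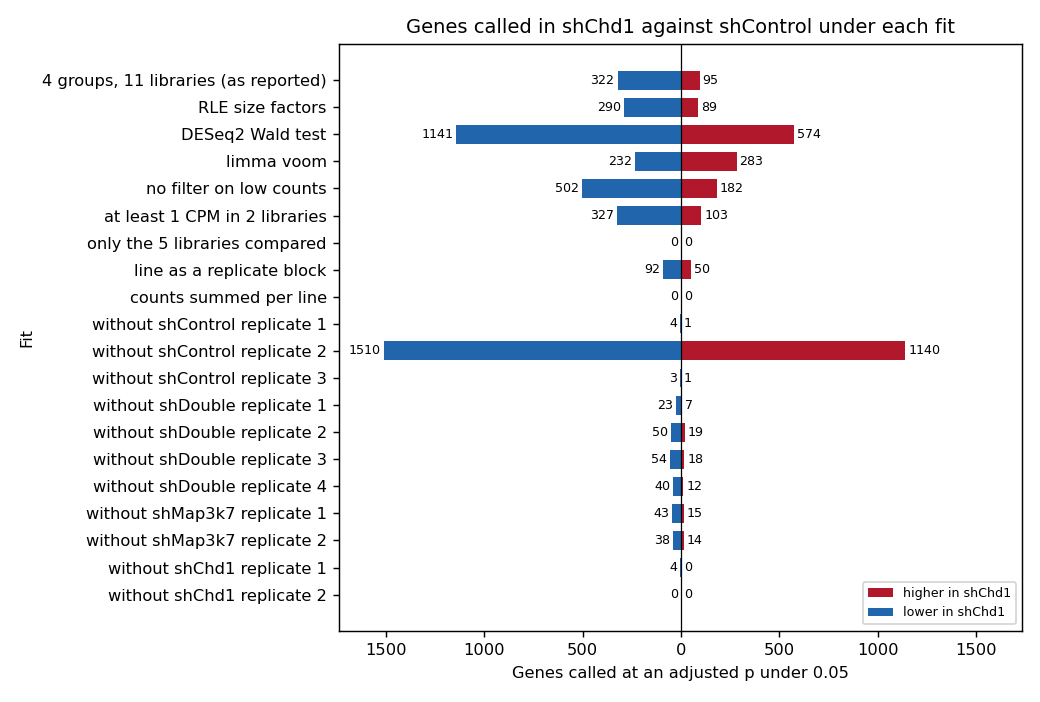
Number of genes called (x axis, adjusted p under 0.05) higher (right, red) and lower (left, blue) in shChd1 against shControl under each fit (y axis). The reported fit gave 95 higher and 322 lower, and leaving out the line 4 control (shControl replicate 2) gave 1140 higher and 1510 lower.

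Several of the called genes encode parts of the attachment of basal cells to the basement membrane. Lama3 and Lamb3 encode chains of laminin-332, the main adhesive laminin under basal epithelial cells, and both fell. Lama3 (chromosome 18, 12333819 to 12583013) measured 13.7 and 10.4 CPM in shChd1, against 109, 51.6 and 60.4 CPM in shControl. Lamb3 (chromosome 1, 193207699 to 193343878) measured 70.3 and 69.4 CPM in shChd1, against 142, 108 and 116 CPM in shControl. In both genes every shChd1 library was below every control, and the line 4 control was the lowest control.

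The log2 fold change was -2.61 ± 0.32 for Lama3 (adjusted p = 0.0243) and -0.81 ± 0.13 for Lamb3 (adjusted p = 0.0253). Within line 4 both remained called, at -2.10 for Lama3 (adjusted p = 0.00816) and -0.63 for Lamb3 (adjusted p = 0.0406). Lama3 stayed called in 9 of 11 fits that each left out 1 library, and lost the call without shChd1 replicate 2 (adjusted p = 0.394) and without shChd1 replicate 1 (adjusted p = 0.063). Lamb3 was called in 6 of the 11. Without the unnumbered control line the log2 fold change of Lama3 was -2.22 (adjusted p = 0.0103).

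Itgb4, the integrin chain that holds laminin-332 at hemidesmosomes, measured 381 and 256 CPM in shChd1, against 840, 598 and 753 CPM in shControl (log2 -1.20 ± 0.21, adjusted p = 0.0286; within line 4 -0.91, adjusted p = 0.0495). Krt14, chosen here after its values were seen, measured 564 and 545 CPM in shChd1, against 3906, 1372 and 1542 CPM in shControl (log2 -2.04 ± 0.40, adjusted p = 0.0358; within line 4 -1.31, adjusted p = 0.0102). Bnc1, a transcription factor of basal keratinocytes, measured 20.9 and 11.8 CPM in shChd1, against 55.1, 40.6 and 38.7 CPM in shControl (log2 -1.46 ± 0.23, adjusted p = 0.0248; within line 4 -1.32, adjusted p = 0.0337). These 3 genes did not overlap between the groups, and neither did any other of the 417 called genes, beside 46.4% of all genes.

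Of 28 basal markers 24 passed the filter on low counts, and 9 of these fell and none rose, beside 2.24% and 0.662% over all genes, with 8 lower within line 4. The 9 became 13 without the line 4 control and 0 to 5 without each other library. The list's median log2 change was -0.98, against -0.01 over all genes tested, and -0.56 within line 4. Its median departure from the control mean was -0.64 and -1.10 in shChd1, and 0.23, -0.26 and -0.14 in the unnumbered, line 4 and line 5 controls. Other basal genes did not pass. Itga6, the partner chain of Itgb4, measured 297 and 369 CPM in shChd1, against 309, 381 and 191 CPM in shControl, and the hemidesmosomal linker gene Dst 774 and 663 CPM in shChd1, against 435, 769 and 667 CPM in shControl, so that the groups overlapped in both. Trp63, the basal lineage factor p63, measured 18.5 and 20.9 CPM in shChd1, against 11.4, 12.1 and 5.17 CPM in shControl (log2 1.05 ± 0.53, adjusted p = 0.248). Itga6, Dst and Trp63 were also chosen after their values were seen.

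**Figure D2:**
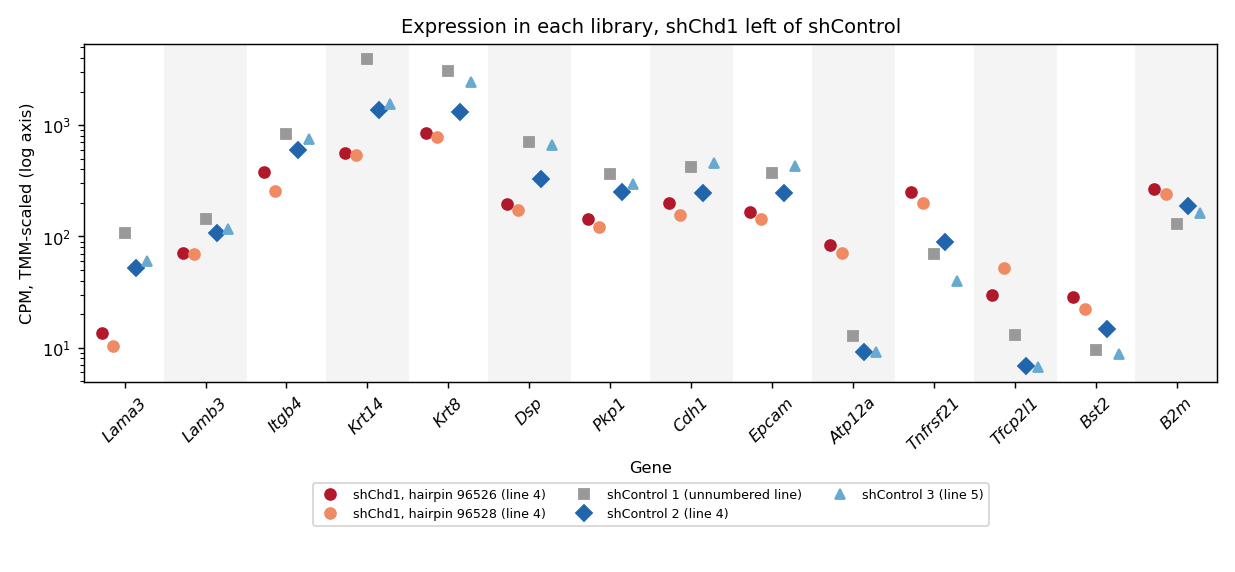
CPM on a log axis (y) of 14 genes (x) in each library, with the shChd1 libraries (circles) left of the shControl libraries (square for the unnumbered line, diamond for line 4, triangle for line 5). In Lama3 the shChd1 libraries sit at 13.7 and 10.4 CPM, below all 3 controls, while in Atp12a they sit at 84.2 and 71.6 CPM, above all 3.

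Luminal keratins fell as well. Krt8 measured 854 and 785 CPM in shChd1, against 3066, 1324 and 2466 CPM in shControl (log2 -1.48 ± 0.27, adjusted p = 0.0324; within line 4 -0.69, adjusted p = 0.00913). Krt18, its partner keratin, measured 487 and 387 CPM in shChd1, against 1830, 631 and 1685 CPM in shControl (log2 -1.66 ± 0.35, adjusted p = 0.0434), and was -0.53 within line 4 (adjusted p = 0.0808). Of 23 luminal markers 19 passed the filter and 4 of these fell, beside 2.24% over all genes. Krt7, a simple-epithelial keratin (log2 -1.24 ± 0.18), was among them with Krt8 and Krt18. Within line 4 Krt7 and Krt8 were called. The 4 became 7 without the line 4 control and 0 or 1 without each other library. The luminal list's median was -0.19, and the line 4 control, at a departure of -0.47, lay between the shChd1 libraries at -0.60 and -0.14.

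Desmosomes join neighbouring epithelial cells and hemidesmosomes join them to the matrix. Of 17 measured components of either 7 fell and none rose (median log2 -0.97), beside 2.24% and 0.662% over all genes. The genes called lower within line 4 were 5. Itgb4 counts both here and among the basal markers. The 7 became 11 without the line 4 control and 0 to 3 without each other library. Dsp, which encodes desmoplakin and links desmosomes to keratin, measured 196 and 172 CPM in shChd1, against 699, 329 and 660 CPM in shControl (log2 -1.61 ± 0.26, adjusted p = 0.0253; within line 4 -0.84, adjusted p = 0.00775). Pkp1, the desmosomal plaque protein plakophilin, measured 145 and 121 CPM in shChd1, against 363, 250 and 295 CPM in shControl (log2 -1.19 ± 0.17, adjusted p = 0.0248; within line 4 -0.91, adjusted p = 0.0309). The cornified envelope and desmosome linker gene Evpl fell by 1.53 ± 0.29 on the log2 scale but missed the threshold within line 4 (-0.80, adjusted p = 0.0698). In 11 of the 17 genes both shChd1 libraries were below all 3 controls, and in none above, beside 23.4% and 23.1% over all genes.

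Of 31 tight and adherens junction genes 9 fell and none rose (median log2 -1.08), beside 2.24% lower over all genes. The 9 became 18 without the line 4 control and 0 without each of the other 10 libraries. Cdh3, placental cadherin of basal cells, measured 6.66 and 4.11 CPM in shChd1, against 56.2, 20.9 and 33.8 CPM in shControl (log2 -2.77 ± 0.52, adjusted p = 0.0354; within line 4 -1.95, adjusted p = 0.00917). Cdh1, which encodes epithelial cadherin, measured 198 and 157 CPM in shChd1, against 425, 248 and 459 CPM in shControl (log2 -1.09 ± 0.22, adjusted p = 0.0387), and its within-line value was -0.48 (adjusted p = 0.121). The adhesion molecule gene Epcam fell by 1.17 ± 0.21 on the log2 scale and was also called within line 4, where 3 genes of the list passed. The line 4 control had the lowest value of the 3 controls in each of the genes named, and the list's median departure was -0.80 and -1.13 in shChd1, and 0.21, -0.56 and 0.31 in the unnumbered, line 4 and line 5 controls.

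Of 23 epithelial transcription and splicing factors and their targets 9 fell and none rose (median log2 -1.09), beside 2.24% lower over all genes. The 9 became 16 without the line 4 control and 0 or 1 without each other library. Esrp1, which sets epithelial splicing, measured 75.9 and 56.0 CPM in shChd1, against 145, 114 and 209 CPM in shControl (log2 -1.24 ± 0.23, adjusted p = 0.0336; within line 4 -0.79, adjusted p = 0.0428). Ap1m2, the clathrin adaptor of epithelial sorting, fell by 1.62 ± 0.32 and was called within line 4 at -0.68. Klf4, a factor of epithelial differentiation, measured 74.7 and 73.4 CPM in shChd1, against 153, 137 and 159 CPM in shControl (log2 -1.02 ± 0.19, adjusted p = 0.0354), and was -0.89 within line 4 (adjusted p = 0.0803). Within line 4 Esrp1 and Ap1m2 were called.

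Of 40 EMT (epithelial to mesenchymal transition) and mesenchymal genes edgeR called none against all controls, beside 2.91% over all genes. Within line 4 it called 1 higher, beside 0.349% over all genes. Against all controls 14 were at an unadjusted p under 0.05, beside 3603 of 14346 over all genes. DESeq2 called 9 (1715 over all genes) and limma voom 1 (515). The list's median log2 change was -0.04, beside -0.01 over all genes. Postn, the matrix protein periostin, measured 16.1 and 22.4 CPM in shChd1, against 2.06, 5.29 and 0.385 CPM in shControl (log2 2.89 ± 0.87, adjusted p = 0.0845). Fstl1, a secreted glycoprotein, measured 3.05 and 2.66 CPM in shChd1, against 51.2, 2.39 and 44.9 CPM in shControl. Its log2 change was -3.52 ± 0.97 against all controls (adjusted p = 0.0705) and 0.26 within line 4 (adjusted p = 0.735), the line 4 control being as low as the shChd1 libraries. Col3a1, a fibrillar collagen chain, measured 91.0 and 87.2 CPM in shChd1, against 34.0, 18.01 and 1.21 CPM in shControl. It was called within line 4 (log2 2.31 ± 0.19, adjusted p = 0.00185) and not against all controls, among which it varied widely (2.33 ± 0.78, adjusted p = 0.106).

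**Figure D3:**
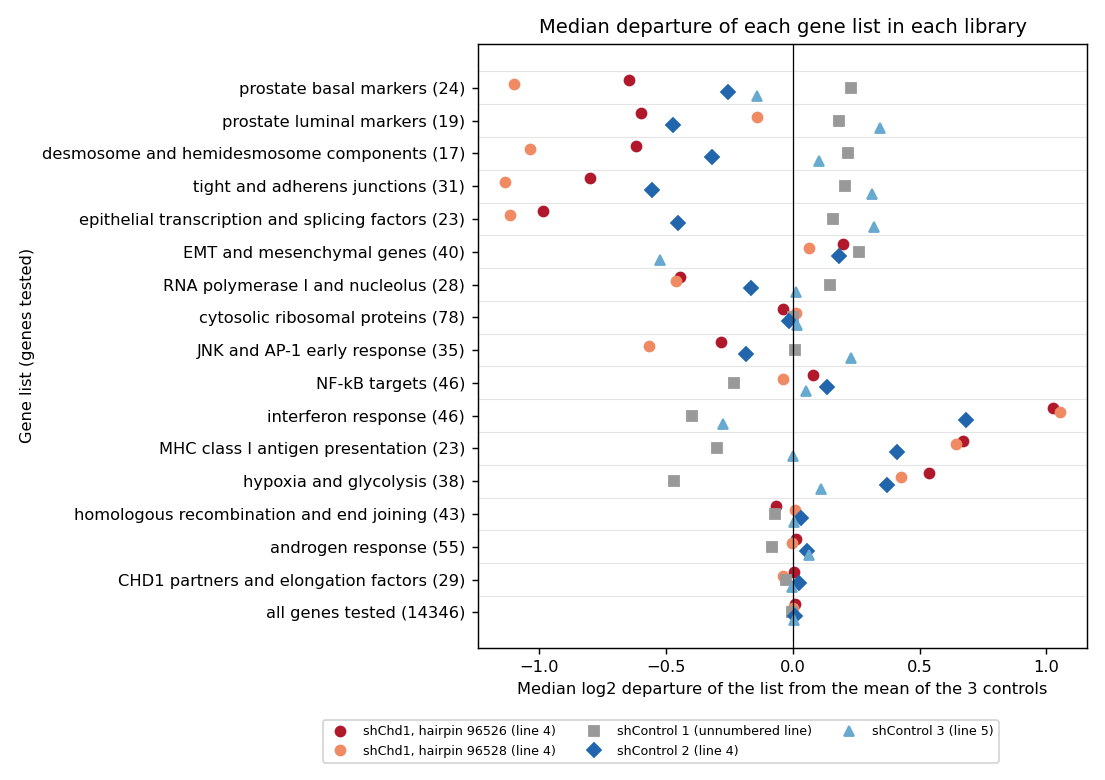
Median log2 departure of each gene list (y axis, genes tested in brackets) from the mean of the 3 controls (x axis), 1 point per library, with shChd1 as circles and the controls as square (unnumbered line), diamond (line 4) and triangle (line 5). For interferon response genes the shChd1 libraries lie at 1.03 and 1.05 and the line 4 control at 0.68, with the other controls at -0.40 and -0.27.

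Among called genes with at least 5 CPM in the higher group, the largest rise against all controls was in Atp12a, which encodes the catalytic subunit of a non-gastric proton and potassium pump (chromosome 14, 56365068 to 56388550). It measured 84.2 and 71.6 CPM in shChd1, against 12.7, 9.24 and 9.07 CPM in shControl, with the controls close to each other and far below both shChd1 libraries. The log2 fold change was 2.91 ± 0.23 (adjusted p = 0.00404) and 3.08 ± 0.21 within line 4 (adjusted p = 0.00185). Atp12a remained called in 9 of 11 fits that left out 1 library. The exceptions were those without shChd1 replicate 1 (adjusted p = 0.0555) and without shChd1 replicate 2 (adjusted p = 0.116).

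Tfcp2l1, a transcription factor of the pluripotency network, measured 29.7 and 51.7 CPM in shChd1, against 13.04, 6.85 and 6.71 CPM in shControl (log2 2.20 ± 0.35, adjusted p = 0.0252; within line 4 2.57, adjusted p = 0.0102). Tnfrsf21, the death receptor DR6, measured 251 and 201 CPM in shChd1, against 69.8, 88.8 and 40.1 CPM in shControl (log2 1.77 ± 0.27, adjusted p = 0.0248; within line 4 1.35, adjusted p = 0.0102). Neither gene overlapped between the groups, which the rule for naming the largest rises required. The noradrenaline transporter gene Slc6a2 rose by 2.63 ± 0.50, the membrane peptidase gene Mme (neprilysin, CD10) by 2.60 ± 0.50, the fucosyltransferase gene Fut9 by 2.04 ± 0.38 and the glycolytic aldolase gene Aldoc by 1.97 ± 0.42 on the log2 scale. In all 4 the line 4 control was the highest of the controls and the change within line 4 was smaller but called, at 1.65, 1.95, 1.29 and 1.27 in that order. Other large rises, Fibin (2.31), the interferon-inducible p200-family gene Mndal (2.08), the NADPH oxidase organizer gene Noxo1 (1.55) and the tetraspanin gene Tspan33 (1.50), missed the threshold within line 4.

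Several of the largest falls also varied widely among the control lines. Krt6a and Krt6b encode keratins of activated epithelium and are close paralogs whose reads the counting may have split. Krt6a measured 10.9 and 2.15 CPM in shChd1, against 1497, 59.6 and 172 CPM in shControl (log2 -6.46 ± 1.41, adjusted p = 0.0453), and -3.19 ± 0.52 within line 4 (adjusted p = 0.0274). Without the unnumbered line the change was -4.15 (adjusted p = 0.0618). Krt6b fell by 6.10 ± 1.42. Wnt7a, a secreted Wnt ligand, measured 0.187 and 0.0632 CPM in shChd1, which is 4 counts in all, against 14.04, 2.44 and 21.7 CPM in shControl (log2 -6.58 ± 1.16, adjusted p = 0.0309; within line 4 -4.21, adjusted p = 0.121). Foxj1, the regulator of motile cilia, measured 12.5 and 2.40 CPM in shChd1, against 174, 18.3 and 174 CPM in shControl (log2 -4.03 ± 0.91, adjusted p = 0.047; within line 4 -1.29, adjusted p = 0.263), and the line 4 control lay close to the shChd1 libraries. The chemokine gene Ccl2 (-4.68) and Fam81a (-4.67) also missed the threshold within line 4.

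Other large falls were called on both baselines. Il24, a cytokine of the interleukin-10 family, measured 0.933 and 0.632 CPM in shChd1, against 23.2, 8.25 and 23.5 CPM in shControl (log2 -4.53 ± 0.63, adjusted p = 0.0248; within line 4 -3.38, adjusted p = 0.0241). The log2 change was -3.90 for Dynap (-2.32 within line 4) and -3.36 for S100a14, a calcium-binding protein (-1.98 within line 4). It was -3.05 for the AP-1 subunit gene Fosb (-2.01 within line 4), -3.04 for the apical transport proteolipid gene Mal (-1.25) and -3.02 for Plekha6 (-1.89). Pglyrp3, a peptidoglycan recognition protein, and Sfn, the epithelial 14-3-3 protein sigma, were among the largest falls within line 4, at -2.49 for Pglyrp3 and -2.05 for Sfn, and were called against all controls at -2.92 and -2.41 in that order.

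Like Col3a1, 4 of the largest rises called within line 4 were not called against all controls. Igfbp5, a secreted binder of insulin-like growth factors, measured 90.7 and 49.3 CPM in shChd1, against 17.7, 2.13 and 0.990 CPM in shControl. Both shChd1 libraries were above every control. The unnumbered line held more than the other controls. The change against all controls was 3.35 ± 1.12 (adjusted p = 0.107), while within line 4 it was 5.04 ± 0.47 (adjusted p = 0.00387). The protocadherin gene Pcdh10 (2.37), the plexin-domain gene Plxdc2 (2.44) and the cytochrome P450 gene Cyp2f2 (2.34) were the others.

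**Figure D4:**
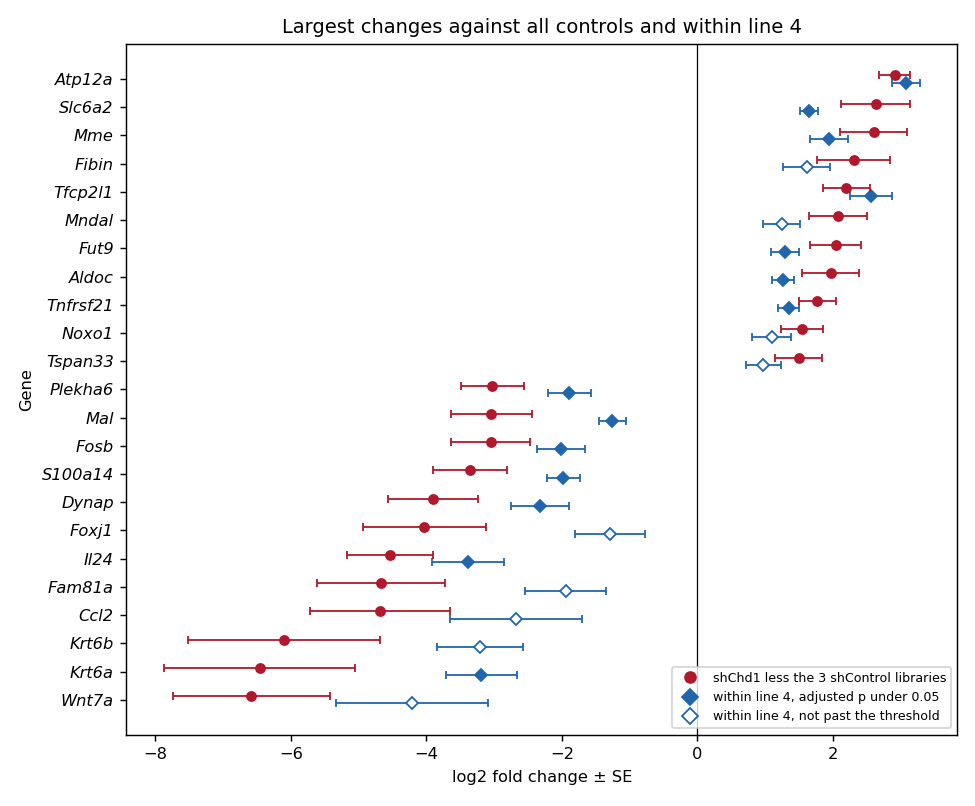
Log2 fold change ± SE (x axis) of 11 of the 12 largest rises and of the 12 largest falls (y axis) against all 3 shControl libraries (red circles) and within line 4 (blue diamonds, filled where the adjusted p is under 0.05). Atp12a stands at 2.91 and 3.08 in this order, while Foxj1 stands at -4.03 and -1.29.

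Interferon response genes stood higher in both shChd1 libraries than in the controls, with the line 4 control between the shChd1 libraries and the other controls. Type I interferons induce these genes through an element, the ISRE, in their promoters. Of 55 listed genes 46 passed the filter, and 3 rose and none fell (median log2 1.00), beside 0.662% and 2.24% over all genes. In 36 of the 46 both shChd1 libraries were above all 3 controls, and in none below, beside 23.1% and 23.4% over all genes. The list's median departure was 1.03 and 1.05 in shChd1, and -0.40, 0.68 and -0.27 in the unnumbered, line 4 and line 5 controls. Within line 4 the median was 0.42 and edgeR called no gene of the list, with 17 at an unadjusted p under 0.05. DESeq2 called 16 and limma voom 13 against all controls.

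Bst2, the antiviral membrane protein tetherin, measured 28.8 and 22.4 CPM in shChd1, against 9.55, 14.8 and 8.74 CPM in shControl (log2 1.21 ± 0.23, adjusted p = 0.0354; within line 4 0.79, adjusted p = 0.0879). Ddx58, the RNA sensor RIG-I, measured 74.6 and 77.6 CPM in shChd1, against 40.4, 56.3 and 44.3 CPM in shControl (log2 0.69 ± 0.14, adjusted p = 0.0358; within line 4 0.44, adjusted p = 0.0934). Parp9, a cofactor of interferon signalling, measured 46.1 and 51.7 CPM in shChd1, against 16.7, 32.5 and 20.6 CPM in shControl (log2 1.07 ± 0.23, adjusted p = 0.0444; within line 4 0.59, adjusted p = 0.0765). In all 3 genes the line 4 control was the highest control. The number of interferon response genes called was 30 without the line 4 control, and 0 without either of the other controls or either shChd1 library (edgeR).

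The promoters of Bst2 and Ddx58 are shown because these are called members of the list with an entry in the RefSeq promoter table (GRCm38.p6). Each is the 250 bases before the annotated start, 5′ to 3′ on the gene's strand. Capitals mark matches to the ISRE core, which is GAAA, any 2 bases and GAAA again, searched on both strands.
Bst2, chr8:71537473-71537722, minus strand: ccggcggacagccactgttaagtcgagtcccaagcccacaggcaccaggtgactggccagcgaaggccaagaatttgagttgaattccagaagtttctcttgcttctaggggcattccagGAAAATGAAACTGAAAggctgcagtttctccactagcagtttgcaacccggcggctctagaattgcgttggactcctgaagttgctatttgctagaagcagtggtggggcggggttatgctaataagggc
Ddx58, chr4:40239826-40240075, minus strand: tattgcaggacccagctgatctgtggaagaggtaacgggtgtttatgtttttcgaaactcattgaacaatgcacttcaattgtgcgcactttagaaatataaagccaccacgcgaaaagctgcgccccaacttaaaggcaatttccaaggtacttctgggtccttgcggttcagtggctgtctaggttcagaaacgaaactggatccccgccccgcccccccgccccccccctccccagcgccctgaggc
The Bst2 window holds overlapping matches whose first base lies at -130 from the start, and the Ddx58 window holds none. Of 32851 promoter windows of this length 978 hold a match (2.98%), and of 47 windows of measured interferon response genes 11 (23.4%). A match is a description of the letters and not evidence of binding.

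Of 23 genes of MHC class I antigen presentation 1 rose, B2m, the light chain of the complex, at 269 and 242 CPM in shChd1, against 128, 188 and 161 CPM in shControl (log2 0.68 ± 0.14, adjusted p = 0.042; within line 4 0.45, adjusted p = 0.0911). The list's median was 0.61 against all controls and 0.29 within line 4, and in 15 of the 23 both shChd1 libraries were above all controls, beside 23.1% over all genes. Of 24 interferon ligands, receptors and sensors 1 fell and none rose, and the median was 0.07. The shares called over all genes were 0.662% higher and 2.24% lower.

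Of 28 genes of RNA polymerase I and the nucleolus, which make ribosomes, 6 fell and none rose (median log2 -0.47), beside 2.24% lower over all genes. In 25 of the 28 both shChd1 libraries were below all 3 controls, beside 23.4% over all genes. The 6 became 19 without the line 4 control and 0 without each of the other 10 libraries. Polr1b, the second-largest subunit of RNA polymerase I, measured 36.2 and 31.4 CPM in shChd1, against 78.8, 50.2 and 59.9 CPM in shControl (log2 -0.90 ± 0.18, adjusted p = 0.0395). Nhp2, a protein of the particles that modify ribosomal RNA, fell by 0.77 ± 0.14, Nop2, an RNA methyltransferase, by 0.75 ± 0.15, and Bop1, a factor of large-subunit assembly, by 0.58 ± 0.11 on the log2 scale. Within line 4 edgeR called none of the list, with 14 at an unadjusted p under 0.05. The median there was -0.24 and the smallest adjusted p of those named was 0.0504, for Nhp2. Myc, a regulator of these genes, measured 102 and 90.5 CPM in shChd1, against 223, 153 and 217 CPM in shControl (log2 -1.04 ± 0.20, adjusted p = 0.0354; within line 4 -0.66, adjusted p = 0.0558). Of 78 cytosolic ribosomal protein genes 1 fell, Rpl27 (-0.62 ± 0.14), and the list's median was -0.01.

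Of 35 immediate-early genes of the JNK and AP-1 pathway 5 fell and none rose (median log2 -0.46), beside 2.24% lower over all genes. The 5 became 15 without the line 4 control and 0 to 2 without each other library. Within line 4 the calls were 3. Besides Fosb the genes called against all controls included Ier5, at 113 and 96.6 CPM in shChd1, against 215, 163 and 224 CPM in shControl (log2 -0.94 ± 0.14, adjusted p = 0.0248; within line 4 -0.64, adjusted p = 0.037), and Fosl1, the AP-1 subunit FRA1, at 44.0 and 37.2 CPM in shChd1, against 74.0, 77.6 and 67.5 CPM in shControl (log2 -0.85 ± 0.17, adjusted p = 0.0358; within line 4 -0.93, adjusted p = 0.0414). In Fosl1 the line 4 control was the highest of the controls.

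Of 46 NF-kB targets 1 rose and 3 fell, with a median of -0.01, and the 3 became 8 without the line 4 control and 0 without each other library. The shares over all genes were 0.662% higher and 2.24% lower. Rel, an NF-kB subunit, measured 29.3 and 30.9 CPM in shChd1, against 18.3, 22.7 and 21.6 CPM in shControl (log2 0.53 ± 0.12, adjusted p = 0.047). Ptgs2, the inducible prostaglandin synthase COX-2, measured 194 and 142 CPM in shChd1, against 593, 322 and 885 CPM in shControl (log2 -1.84 ± 0.35, adjusted p = 0.0354). Saa3, an acute-phase protein, fell by 2.76 ± 0.57, and the third fall was Ccl2. None of these 4 was called within line 4, where Il1rn, which encodes an antagonist of the interleukin-1 receptor, and the cytokine gene Il33 were called higher. Il1rn measured 78.3 and 93.9 CPM in shChd1, against 5.06, 35.1 and 3.85 CPM in shControl (within line 4 1.29, adjusted p = 0.0378; against all controls 2.54 ± 0.74, adjusted p = 0.0791). Il33 measured 38.1 and 29.8 CPM in shChd1, against 12.9, 12.3 and 2.31 CPM in shControl (within line 4 1.47, adjusted p = 0.0267; against all controls 1.89 ± 0.63, adjusted p = 0.107). Of 27 members of the TAK1 pathway 1 fell, the p38 kinase gene Mapk13 (-1.07 ± 0.21), beside 2.24% over all genes.

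Lists tied to what is known of CHD1 in the prostate were read beside the 2.91% called over all genes. Of 43 genes of homologous recombination and end joining, pathways of double-strand break repair, edgeR called none, with 5 at an unadjusted p under 0.05, 2 called by DESeq2 and 0 by limma voom (median log2 -0.03). Those with the smallest p were the Fanconi anaemia gene Fanca, at 23.2 and 22.4 CPM in shChd1, against 27.3, 32.2 and 28.7 CPM in shControl (adjusted p = 0.0867), and Polq, the polymerase of microhomology end joining, at 17.0 and 19.1 CPM in shChd1, against 29.8, 21.2 and 27.7 CPM in shControl (adjusted p = 0.0922). Of 55 androgen response genes 4 fell and none rose (median -0.05): Krt8, Inpp4b, a phosphoinositide phosphatase, the microtubule-binding gene Map7 and Tsc22d1. The 4 became 10 without the line 4 control and 0 or 1 without each other library. Inpp4b measured 23.7 and 16.6 CPM in shChd1, against 68.5, 48.6 and 85.2 CPM in shControl (log2 -1.74 ± 0.29, adjusted p = 0.0286; within line 4 -1.27, adjusted p = 0.0174). Of 7 measured factors linked to lineage plasticity after CHD1 loss edgeR called none, with 3 at an unadjusted p under 0.05, 3 called by DESeq2 and 0 by limma voom. The nuclear receptor gene Nr2f1 measured 39.0 and 28.5 CPM in shChd1, against 10.1, 21.7 and 18.5 CPM in shControl (adjusted p = 0.0637), and Nr2f2 52.3 and 40.8 CPM in shChd1, against 62.9, 74.7 and 79.2 CPM in shControl (adjusted p = 0.0732).

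Of 22 stem and progenitor markers 1 rose and 4 fell, and the 4 became 5 without the line 4 control and 0 to 2 without each other library. Over all genes 0.662% rose and 2.24% fell. Kit, a receptor tyrosine kinase, measured 2.05 and 2.59 CPM in shChd1 and 0.250, 0.260 and 0.0550 CPM in shControl, or 74 counts against 10 in all (log2 3.58 ± 0.63, adjusted p = 0.0349; within line 4 3.13, adjusted p = 0.102). Procr, the protein C receptor, fell by 1.70 ± 0.32, beside Klf4 and Myc. Of 54 cell cycle genes 1 fell, near the 2.24% over all genes, and the median was -0.12. It was the mitotic kinase gene Plk1, at 110 and 104 CPM in shChd1, against 155, 158 and 185 CPM in shControl (log2 -0.64 ± 0.12, adjusted p = 0.0354; within line 4 -0.56, adjusted p = 0.0252).

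In metabolic and stress lists 0 to 2 genes were called, beside 2.91% over all genes. Of 34 cholesterol and fatty acid synthesis genes 1 rose, the fatty acid elongase gene Elovl6, at 170 and 206 CPM in shChd1, against 92.1, 114 and 113 CPM in shControl (log2 0.82 ± 0.13, adjusted p = 0.0253; within line 4 0.72, adjusted p = 0.0337). Ero1l, the oxidase of the endoplasmic reticulum, rose by 0.79 ± 0.15 and Trib3, a pseudokinase induced by ATF4, fell by 0.95 ± 0.21, of 31 genes of the unfolded protein and ATF4 response. Ero1l was also the 1 called gene of 38 of hypoxia and glycolysis (median log2 0.41 against all controls and 0.14 within line 4). Of 36 p53 targets edgeR called none, with 12 at an unadjusted p under 0.05, 4 called by DESeq2 and 0 by limma voom (median -0.34), with Perp, a desmosomal p53 target, at 62.8 and 54.6 CPM in shChd1, against 143, 82.3 and 120 CPM in shControl (adjusted p = 0.0661). Of 32 TGF-beta response genes 1 fell, the ubiquitin ligase gene Smurf1 (-0.86 ± 0.20).

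Few markers of other cell types passed the filter: 6 of 13 for fibroblasts and 3 each for smooth muscle, endothelium, immune cells and neuroendocrine cells. Their only call against all controls was a fall of Smtn, a smooth-muscle cytoskeletal protein (-1.09 ± 0.22), beside 2.24% lower over all genes. Smtn missed the threshold within line 4 (-0.69, adjusted p = 0.118). The summed level of the tested fibroblast markers was 162 and 156 CPM in shChd1, against 116, 86.4 and 37.8 CPM in shControl, and Col3a1 given above made up much of it. For the neuroendocrine markers the sum was 505 and 489 CPM in shChd1, against 212, 389 and 195 CPM in shControl, of which Ncam1, an adhesion molecule gene, made up 501 and 486 CPM in shChd1 and 196, 386 and 195 CPM in shControl (log2 0.93 ± 0.49, adjusted p = 0.269; chosen after its values were seen). Chga, which encodes the granule protein chromogranin A, was at 0 in all 5 libraries. In bulk RNA, fewer cells of a type and less RNA per cell cannot be told apart. The part of other cell types in the results was not tested.

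By chromosome, the shChd1 medians lay farthest from the control mean on 10, 5 and X. The median log2 departure of the 645 tested genes on chromosome 10 was -0.21 and -0.22 in shChd1, and 0.05, -0.14 and 0.09 in the unnumbered, line 4 and line 5 controls. Of these genes 34 fell (5.27%, beside 2.24% over all genes) and 1 rose. On chromosome 5 19 of 969 fell (1.96%), and on chromosome 15, whose shChd1 mean departure was -0.04, 21 of 518 fell (4.05%). The median on chromosome 5 was -0.18 and -0.20 in shChd1, and 0.07, -0.13 and 0.08 in the controls in the same order, and on chromosome X, with 443 genes, 0.08 and 0.15 in shChd1 and -0.05, 0.04 and 0.03 in the controls. Measured from the line 4 control, the shChd1 mean departure was -0.09 on chromosome 10, -0.05 on chromosome 5 and 0.06 on chromosome X. DNA copy number was not measured, and its part in these medians was not tested.

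**Figure D5:**
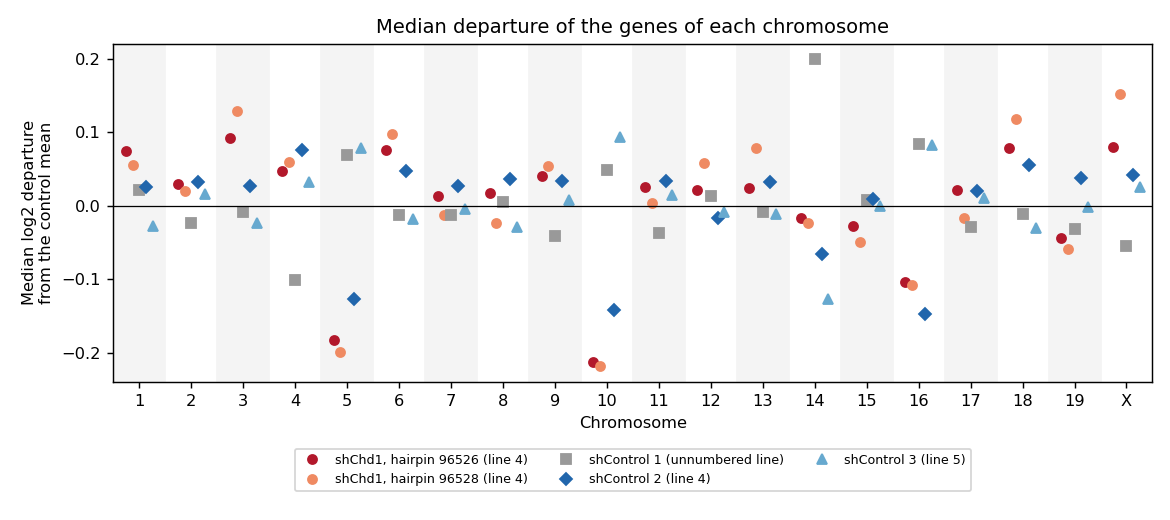
Median log2 departure from the mean of the 3 controls (y axis) of the genes of each chromosome (x axis), 1 point per library, with shChd1 as circles and the controls as square (unnumbered line), diamond (line 4) and triangle (line 5). On chromosome 10 the shChd1 libraries lie at -0.21 and -0.22 and the line 4 control at -0.14.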

How the data were processed

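The values are expected counts, estimated reads per gene that the authors deposited as 1 table of 11 libraries. Per the submitters' processing notes the tools were Bowtie2, RSEM 1.3.1 and limma, with genome build GRCm38; no source used here gives the annotation or the strand setting. Between 7.83% and 9.11% of a library's values were not whole, and all were rounded. RSEM divides reads shared by similar genes, so close paralogs are uncertain, and without a known strand setting overlapping genes are too.

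Genes were kept with filterByExpr (minimum count 10, minimum total 15), which left 14346 of 48299 genes. The largest share of counts lost by a library was 0.117%. Dates stood in place of 16 symbols, which were not named. Of the tested genes 14175 matched GENCODE M21 by symbol. edgeR 4.0.16 (R 4.3.3) gave TMM factors and a quasi-likelihood F-test with 4 group means over the 11 libraries and Benjamini-Hochberg adjustment over all genes. The labels place both shChd1 libraries and a control in line 4, so a model with the line as replicate block is given beside the results. The block model has 4 residual degrees of freedom, against 7. Libraries of a line share spread, so the adjusted p of the model with 4 group means rests in part on spread within lines. In the block model it rests wholly on spread within lines, mostly in the Map3k7 clones. Scripts were tested on simulated counts. Counting error alone sets the 3-count level, as reads carry no molecular identifiers.

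Alternatives were DESeq2 1.42.0, limma voom 3.58.1, RLE factors, other filters, fewer libraries and each library left out. Genes named are Chd1 and Map3k7, the 12 largest rises and falls called with at least 5 CPM and no overlap between groups, up to 6 each way called within line 4, and up to 4 called members of each list with the smallest adjusted p, or 2 with the smallest p where none was called. A few others are named beside them, and some genes that the rule picks are left out of the text. The gene lists were chosen with earlier results of these data known. Some genes stand in several lists, among them Itgb4, Klf4 and Krt8, so the lists are not independent. The deposited normalized table was not used.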

Additional observations from a re-analysis of the deposited data

Results flagged for a closer look

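For 4 of the genes picked by the naming rule and reported here, the shChd1 difference within line 4 differed from the Chd1 hairpin difference in the Map3k7 clones. The test was of the interaction in the model with the line as block. The interaction is the Chd1 hairpin effect in the Map3k7 clones less that in the control lines. On the log2 scale it was 2.19 ± 0.28 for Lama3, 2.0 ± 0.26 for Cdh3 and 0.88 ± 0.11 for Dsp (edgeR adjusted p = 0.0428 for each), and 0.69 ± 0.10 for Krt8 (adjusted p = 0.0495). Lama3 measured 105, 92.3, 89.8 and 129 CPM in shDouble, against 103 and 90.8 CPM in shMap3k7. Krt8 measured 3670 to 3941 CPM in shDouble, against 3850 and 3750 CPM in shMap3k7. Dsp measured 775 to 816 CPM in shDouble, against 799 and 752 CPM in shMap3k7. In these 3 genes the levels in the Map3k7 clones lay close to each other with and without a Chd1 hairpin, while the shChd1 libraries lay below all controls. Cdh3 differed more among the Map3k7 clones, at 66.55, 75.92, 34.31 and 38.75 CPM in shDouble, against 62.43 and 39.04 CPM in shMap3k7. For Chd1 itself the interaction with the block was 0.10 ± 0.14 (edgeR adjusted p = 0.817). The part of the depth of knockdown in these differences was not tested. Without the block the interaction called none of the 14346 genes (edgeR), with 1998 at an unadjusted p under 0.05, and with it 11.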

How the results depend on the processing

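Against the 417 genes called (95 higher, 322 lower), DESeq2 called 1715 (574 higher, 1141 lower), no filter on low counts 684 (182 and 502) and the line as a replicate block 142 (50 and 92); limma voom called 283 higher and 232 lower. With the 5 libraries alone (2925 genes at an unadjusted p under 0.05) and with counts summed per line (1422) none was called. Leaving out each library gave 0 to 2650 calls, 0 to 1140 higher and 0 to 1510 lower. Of the 417 genes, 409 were called by DESeq2, 318 by voom and 94 with the block. Members of the lists called were 70, against 196 with DESeq2, 107 with no filter, 30 with the block, 0 with the 5 libraries or summed counts, and 0 to 261 without each library. Chd1 missed the threshold with no filter (-0.460, adjusted p = 0.0515), the 5 libraries (-0.455, 0.200), the block (-0.400, 0.134) and summed counts (-0.462, 0.524), and stood at -0.492 to -0.432 without each library. Measured from the line 4 control, chromosomes 10, 5 and X stood at -0.090, -0.052 and 0.059. The interaction was called at 5 genes picked by the naming rule with the block, not all of them reported here, and at 0 without. Of 98 named genes, the sign turned for Map3k7 without shControl replicate 1 (-0.008, in a range to 0.081 over the libraries left out) and for Fstl1 with the block (0.257), neither of them called. The causes were not tested. The limits are that both Chd1 constructs sit in a single clone with 1 control library; 3 counts, or 0.156 to 0.19 CPM, bound what low genes can show.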
